A study of Mus musculus with 6 samples.

Results

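The expression of 10 genes of the Notch pathway was examined in mouse palatal shelves at E14.25, a stage given in days of embryonic development. They were the receptors Notch1, Notch2 and Notch3, the ligands Jag1, Jag2 and Dll1, and the target genes Hes1, Hey1, Hey2 and Heyl. These members were chosen by symbol from the 23366 genes counted in each file, and all 10 were found and passed the filter on low counts with which 14233 genes were tested. RNA came from paired palatal shelves, the outgrowths of the maxilla that form the secondary palate, in 3 wild type libraries (genotype label WT, called WT2, WT3 and WT4 after their titles) and 3 knockout libraries (genotype label Kmt2dfl/fl Wnt1-Cre, called KO1, KO2 and KO3). The labels call the samples of a group biological replicates. Kmt2d encodes a histone H3 lysine methyltransferase, and the question is what its deletion in neural crest cells does to gene expression in the shelf. Wnt1-Cre recombines floxed alleles in the neural crest lineage, so the epithelium, endothelium, blood and skeletal muscle cells of a shelf were not targeted. Whether the wild type embryos carried floxed alleles or the Cre transgene, and how many animals a library pooled, is not given in the sources used here.

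Notch receptors are cell surface proteins that are activated by Jagged or Delta-like ligands on a neighbouring cell. Ligand binding leads to cleavage by an ADAM protease and then by gamma-secretase, and the released intracellular domain enters the nucleus, where it joins the DNA-binding protein RBPJ and a Mastermind coactivator and turns on target genes, among them the Hes and Hey repressors. In the mouse palate Jag2 is required for normal shelf elevation and fusion, and in blood vessels Notch1 and Notch3 act in endothelium and in smooth muscle cells and pericytes.

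The promoter of Hey2 is shown because it was the only one among the matched members that carried the RBPJ core motif, and Hey2 is one of the transcripts through which pathway output is read here. Promoters from RefSeq, spanning 250 bases before to 50 bases after a gene's start, were matched for 7 of the 10 members (8 promoters, 2 of them of Dll1). None was matched for Hes1, Hey1 and Heyl, so Hey2 was the only target gene whose promoter was searched. The Hey2 promoter lies at chr10:30842734-30843033 of GRCm38.p6 on the minus strand and is written along the gene. Capitals mark the motif GTGGGAA on either strand, which contains the core TGGGAA.
Hey2: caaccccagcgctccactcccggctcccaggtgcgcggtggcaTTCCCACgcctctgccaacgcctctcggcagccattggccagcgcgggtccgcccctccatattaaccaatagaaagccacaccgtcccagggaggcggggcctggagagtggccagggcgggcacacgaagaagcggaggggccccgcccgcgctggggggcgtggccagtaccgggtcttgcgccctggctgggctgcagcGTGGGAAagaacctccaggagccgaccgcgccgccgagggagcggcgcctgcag
The Hey2 matches began 207 bases before the start on the reverse strand and 4 bases before it on the forward strand. GTGGGAA was present on either strand in 6.38% of 32851 promoters of this length and at least 2 times in 0.256% of them, and TGGGAA was present in 25.6%. Neither motif was found in the windows of Notch1, Notch2, Notch3, Jag1, Jag2 or Dll1. A match of letters is not a measured binding site.

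Read pairs assigned to genes ranged from 12721979 to 24916079 per library. KO2 was the shallowest and stood apart: 47.5% of its pairs fell on no feature used in counting, where the other 5 had 12.3% to 18.1%. Which features were counted is not given, so such pairs may lie inside genes, as in introns, or outside them. All 3 knockout libraries had a smaller share of their pairs assigned to genes (34.2% to 57.8%) than the wild type libraries (63.6% to 66.4%). KO1 and KO3 also had more pairs that did not align uniquely, 30.3% and 27.7%, beside 18.4% to 20.99% in the wild type and 18.1% in KO2. The smaller share assigned to genes runs along the groups and cannot be told apart from genotype, while the higher non-unique share was seen in KO1 and KO3 only. The profile of KO2 correlated with those of the other 5 libraries at 0.922 to 0.942 across genes. KO1 and KO3 correlated with each other at 0.977 and the wild type libraries at 0.984 to 0.987. Of all 14233 genes, 71% were at their highest or lowest in KO2. The log2 fold changes of the members are therefore given with and without it. The transcript of the targeted gene, counted under its older symbol Mll2, stood at 197, 211 and 171 CPM (counts scaled to an equal library size) in WT2, WT3 and WT4 and at 254, 539 and 193 CPM in KO1, KO2 and KO3 (edgeR, adjusted p = 0.368). These counts cover undeleted exons and untargeted cells as well and do not check the labels. The mesenchyme markers Prrx1, Twist1, Osr2, Pax9, Msx1, Shox2, Tbx22 and Pdgfra were detected in every library and summed to 1372 to 1406 CPM in the wild type and 1538 to 1854 CPM in the knockout. The higher sum came mostly from Prrx1 (means of 591 and 801 CPM) and does not describe the list, since Twist1, Osr2 and Tbx22 had negative log2 fold changes. Of the 8 markers 0 passed the test (edgeR), and their median log2 fold change was 0.077 with all libraries and -0.013 without KO2.

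No Notch receptor, ligand or target passed the test between knockout and wild type. Of the 10 members, 0 had an adjusted p under 0.05 in edgeR's quasi-likelihood test with Benjamini-Hochberg adjustment over all genes, against 0.534% of all genes tested. At an unadjusted p under 0.05 there was 1 member, Notch1, against 2021 of the 14233 genes. The other tools run gave 1 member with DESeq2, again Notch1, where 453 of 15894 genes passed. With limma voom 0 members passed, where 60 of 14233 genes did. Leaving out KO2 also gave 0 members, where 2.12% of all genes passed. In 2 of the 10, Notch1 and Notch3, the knockout libraries all lay below the wild type libraries, while 23.5% of all genes had groups that did not overlap. The members' log2 fold changes of knockout over wild type ran from -0.55 to 0.37, with 6 of 10 positive and a median of 0.075, beside a median of 0.011 over all genes. A p that misses the threshold does not show that the levels were equal, and the intervals given below state what differences the data allow. In RNA from whole tissue, fewer cells of a type and less RNA per cell cannot be told apart.

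**Figure D1:**
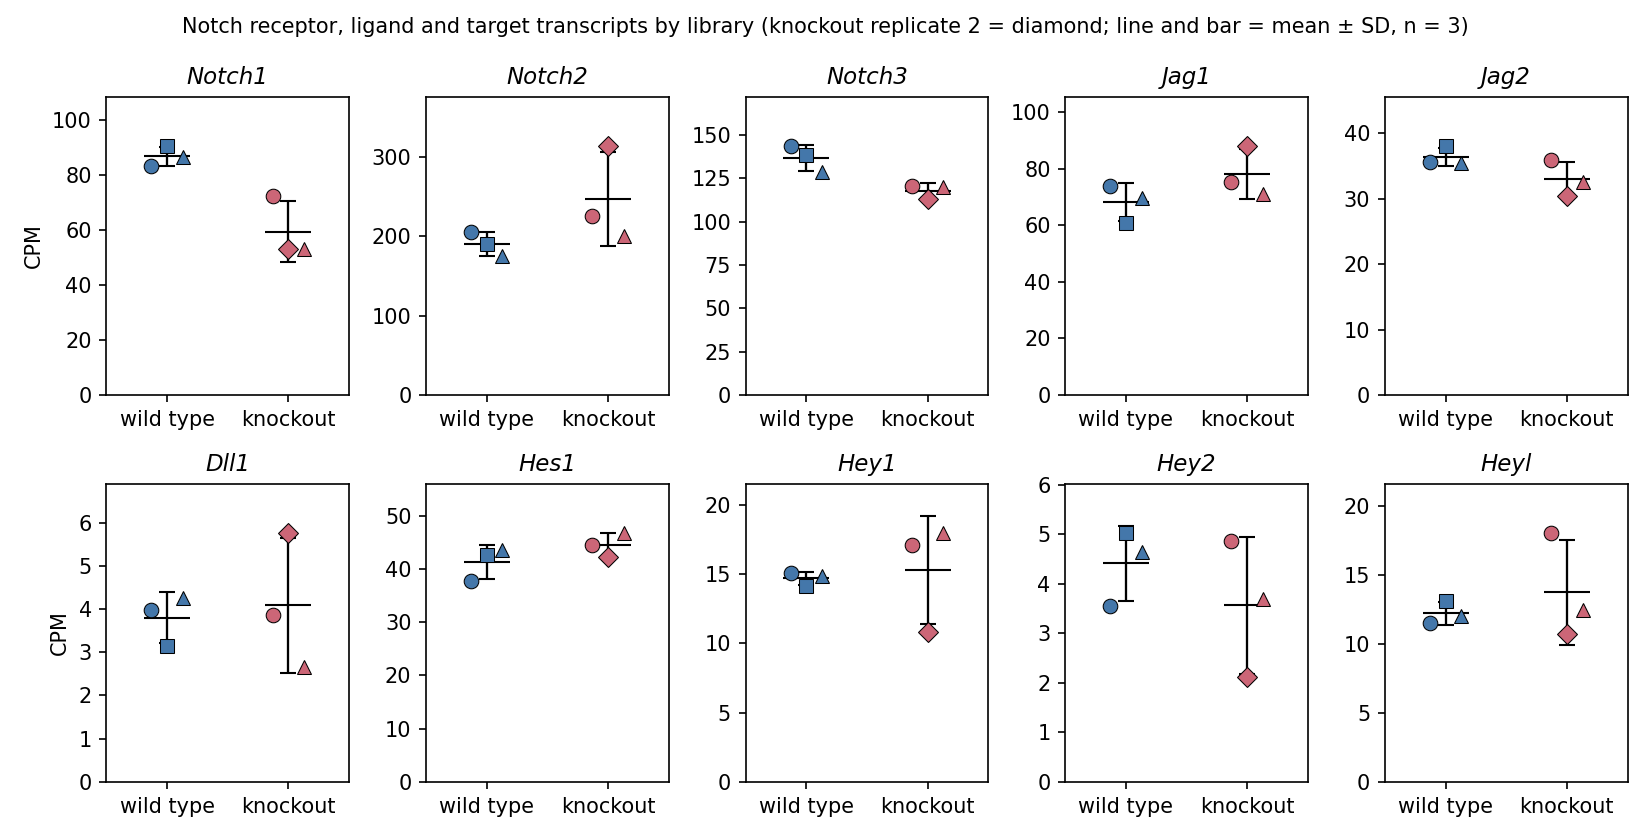
CPM of each of the 10 Notch genes in the 3 wild type libraries (blue) and the 3 knockout libraries (red), on axes that start at 0; circles, squares, triangles and diamonds mark replicates, the horizontal line is the group mean and the bar the SD (n = 3). The groups are separate for Notch1 and Notch3 and overlap for the other 8 genes, and KO2 (diamond) is the highest library for Notch2, Jag1 and Dll1.

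Among the receptors, Notch1 showed the largest difference. Notch1 stood at 83.4, 90.6 and 86.6 CPM in WT2, WT3 and WT4 and at 72.4, 53.1 and 53.0 CPM in KO1, KO2 and KO3. Every knockout library lay below every wild type library, and KO1 lay nearest to the wild type. The means were 86.9 ± 3.60 and 59.5 ± 11.2 CPM (SD, n = 3 each), a log2 fold change of -0.55 (SE 0.14, 95% interval -0.88 to -0.21). Ranked by p, Notch1 was number 391 of 14233 genes, and it did not pass (edgeR quasi-likelihood test, adjusted p = 0.203). DESeq2 gave Notch1 a log2 fold change of -0.56 that passed the threshold (adjusted p = 0.0297), the lowest among 14 alternatives whose adjusted p reached up to 0.623. Without KO2 the log2 fold change of Notch1 was -0.48 (edgeR, adjusted p = 0.105), so its size did not rest on that library.

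Notch2, the receptor with the highest counts, stood at 205.9, 190.1 and 174.7 CPM in WT2, WT3 and WT4 and at 226, 313 and 200.8 CPM in KO1, KO2 and KO3. KO2 was the highest library, and KO3 lay inside the wild type range. Notch2 had a log2 fold change of 0.37 (SE 0.17, 95% interval -0.034 to 0.78; edgeR, adjusted p = 0.374). It was 0.15 without KO2 (adjusted p = 0.454).

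Notch3, the receptor of vascular smooth muscle and pericytes, stood at 143, 139 and 129 CPM in WT2, WT3 and WT4 and at 121, 113 and 119.7 CPM in KO1, KO2 and KO3. The groups did not overlap, but the gap between the lowest wild type and the highest knockout library was smaller than the range of the wild type. Notch3 had a log2 fold change of -0.22 (SE 0.094, 95% interval -0.44 to 0.0036; edgeR, adjusted p = 0.356), and -0.20 without KO2 (adjusted p = 0.237).

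**Figure D2:**
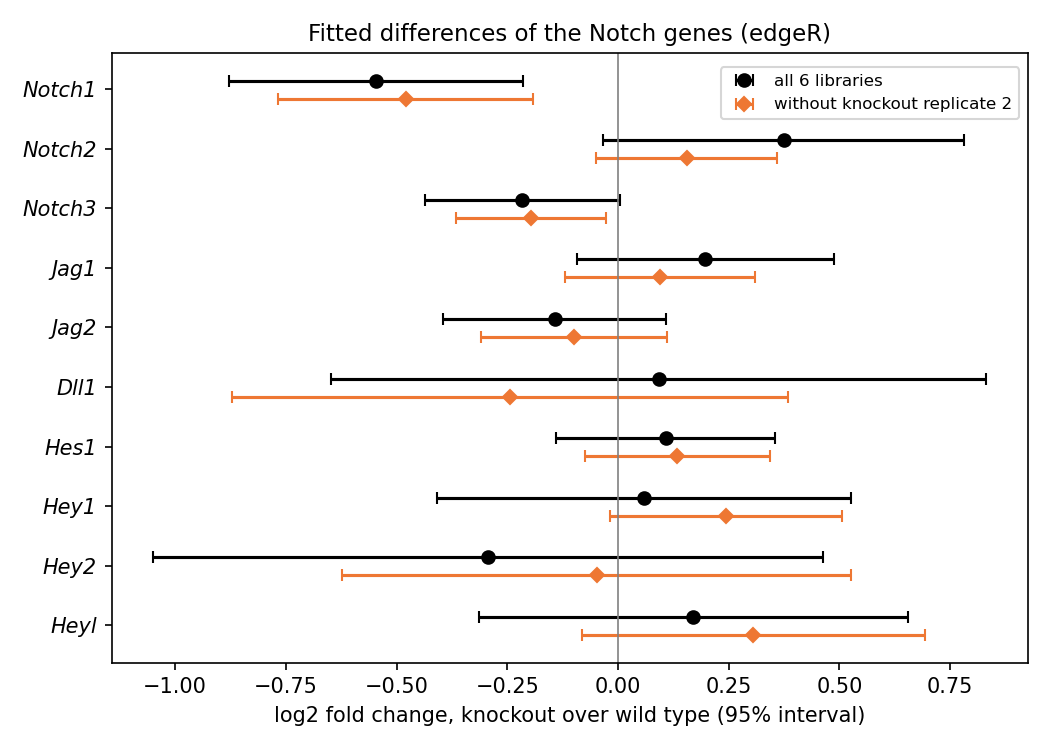
Log2 fold change of knockout over wild type for each Notch gene (x axis), fitted with edgeR, with its 95% interval; black circles use all 6 libraries and orange diamonds leave out KO2. With all 6 libraries the interval of Notch1 (-0.88 to -0.21) is the only one that leaves out 0, and these intervals are not adjusted for the number of genes; without KO2 that of Notch3 leaves it out as well.

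The mix of receptor transcripts in each knockout library lay outside the wild type range, with a higher share of Notch2 and lower shares of Notch1 and Notch3. The 3 shares of a library make up a whole, so they are not separate differences, and the Notch2 level itself overlapped between the groups. Counts were divided by exon length so that receptors could be compared with each other, and the share of each receptor was taken within a library, which does not depend on how libraries are scaled. The size of such a share does depend on the exon lengths used. Notch2 made up 44.7%, 42.9% and 42.4% of the receptor transcripts in WT2, WT3 and WT4 and 51.1%, 62.1% and 50.1% in KO1, KO2 and KO3. Its share was thus above the wild type range in each knockout library, and highest in KO2. Notch1 made up 13.7%, 15.5% and 15.9% of them across WT2, WT3 and WT4, and 12.4%, 7.97% and 10.03% across KO1, KO2 and KO3. Notch3 contributed 41.5%, 41.6% and 41.7% across the wild type libraries and 36.5%, 29.9% and 39.8% across the knockout libraries. The wild type shares of Notch3 lay within a fraction of a percentage point of each other, whereas the knockout shares were spread widely. On average the knockout share was 11.1 percentage points higher for Notch2, and the difference was -4.91 points for Notch1 and -6.22 points for Notch3. Without KO2 these differences were 7.28, -3.82 and -3.46 points. The ratio of Notch2 to Notch1 counts, which needs neither a length nor a scaling, was 2.47, 2.10 and 2.02 in WT2, WT3 and WT4 and 3.12, 5.91 and 3.79 in KO1, KO2 and KO3. These shares and ratios follow from the members' own values and are given as a description without a test. The summed receptor level was 40.7 ± 2.28 CPM per kb in the wild type and 41.6 ± 4.85 CPM per kb in the knockout (SD, n = 3 each), with overlapping groups.

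**Figure D3:**
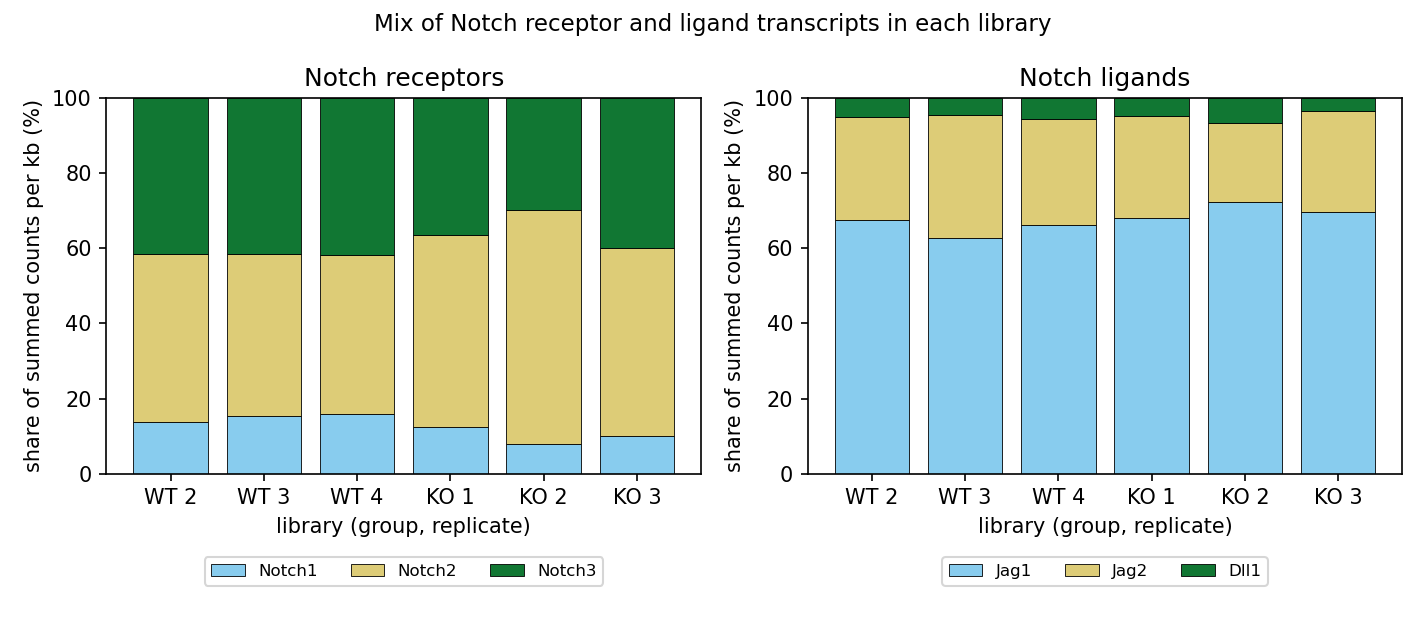
Share of each receptor (left) and each ligand (right) in the summed counts per kb of its set (y axis, percent) in each library (x axis, group and replicate number). The Notch2 share is between 42.4% and 44.7% in the wild type and at least 50.1% in the knockout libraries, and Jag1 is the largest ligand share in all 6 libraries.

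Of the ligands, Jag1 stood highest and none of the 3 passed the test. Jag1, whose human counterpart is mutated in Alagille syndrome, stood at 73.8, 60.8 and 69.7 CPM in WT2, WT3 and WT4 and at 75.2, 87.9 and 71.2 CPM in KO1, KO2 and KO3. The groups overlapped, and KO2 was the highest library. For Jag1 the log2 fold change was 0.20 (SE 0.12, 95% interval -0.093 to 0.49; edgeR, adjusted p = 0.478), and 0.094 without KO2.

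Jag2, the ligand required in palate formation, stood at 35.7, 38.0 and 35.5 CPM in WT2, WT3 and WT4 and at 35.9, 30.5 and 32.5 CPM in KO1, KO2 and KO3. KO1 lay inside the wild type range and the other 2 lay below it. For Jag2 the log2 fold change was -0.14 (SE 0.11; edgeR, adjusted p = 0.5496), and its 95% interval allowed a knockout level of 0.761 to 1.08 times that of the wild type. Without KO2 the log2 fold change of Jag2 was -0.099 (adjusted p = 0.664).

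Dll1, the Delta-like ligand, had only 48 to 112 read pairs per library, so its values were less precise. It stood at 3.99, 3.14 and 4.26 CPM in WT2, WT3 and WT4 and at 3.86, 5.75 and 2.65 CPM in KO1, KO2 and KO3. The highest and the lowest library both belonged to the knockout. The exact Poisson 95% interval, which covers counting error only, was 1.96 to 3.52 CPM for the lowest, KO3, and 4.53 to 7.20 CPM for the highest, KO2, so these libraries differed by more than counting error. The log2 fold change of Dll1 was 0.092 (SE 0.32; edgeR, adjusted p = 0.911) and -0.24 without KO2, and it also changed sign with limma voom, so no direction is given. As shares of the ligand transcripts per length, Jag1 made up 67.6%, 62.7% and 66.2% in WT2, WT3 and WT4 and 68.0%, 72.4% and 69.7% in KO1, KO2 and KO3. The lowest knockout share of Jag1 thus lay just above the highest wild type share. Jag2 made up 29.5% ± 2.96 in the wild type and 24.9% ± 3.41 in the knockout and Dll1 5.03% ± 0.56 and 4.98% ± 1.48 (SD, n = 3 each).

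The target genes showed no shift common to all 4. Hes1, a repressor of the bHLH class that is widely used as a readout of Notch signalling, stood at 37.7, 42.7 and 43.5 CPM in WT2, WT3 and WT4 and at 44.5, 42.2 and 46.7 CPM in KO1, KO2 and KO3. KO2 lay among the wild type libraries for Hes1, unlike its place for most members. Hes1 had a log2 fold change of 0.11 (SE 0.11; edgeR, adjusted p = 0.644), and the 95% interval set the knockout level between 0.907 and 1.28 times that of the wild type, the narrowest interval among the 4 targets. Without KO2 the log2 fold change of Hes1 was 0.13 (adjusted p = 0.534).

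Hey1, a Hes-related repressor, stood at 15.1, 14.16 and 14.9 CPM in WT2, WT3 and WT4 and at 17.1, 10.8 and 17.95 CPM in KO1, KO2 and KO3. KO2 was the lowest library and the other 2 knockout libraries were the highest. The log2 fold change of Hey1 was 0.059 (SE 0.20; edgeR, adjusted p = 0.909). It was 0.24 without KO2 (adjusted p = 0.339), and below 0 without KO1 or KO3, so its direction depended on which library was left out.

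Heyl, a further member of the Hey family, stood at 11.5, 13.1 and 12.0 CPM in WT2, WT3 and WT4 and at 18.03, 10.7 and 12.4 CPM in KO1, KO2 and KO3. KO1 alone lay above the wild type range. For Heyl the log2 fold change was 0.17 (SE 0.21; edgeR, adjusted p = 0.714), and -0.074 without KO1. It was 0.31 without KO2 (adjusted p = 0.431).

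Hey2, whose promoter is printed above, had 28 to 112 read pairs per library. It stood at 3.56, 5.02 and 4.65 CPM in WT2, WT3 and WT4 and at 4.87, 2.12 and 3.70 CPM in KO1, KO2 and KO3. KO2 was the lowest library, with an exact Poisson 95% interval of 1.41 to 3.06 CPM, and the other 2 lay inside the wild type range. Hey2 had a log2 fold change of -0.29 (SE 0.32, 95% interval -1.05 to 0.46; edgeR, adjusted p = 0.684), and -0.048 without KO2. Hey1, Hey2 and Heyl were thus each at their lowest in KO2, a library in which 8 of the 10 members were at an extreme, beside 71% of all genes.

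On the scale of CPM per kb of exon, the wild type levels ranked Hes1 first (20.3 ± 1.56), followed by Notch2 (17.6 ± 1.44), Notch3 (16.9 ± 0.928), Jag1 (11.7 ± 1.15), Notch1 (6.10 ± 0.253), Jag2 (5.23 ± 0.204), Hey1 (4.50 ± 0.148), Heyl (2.39 ± 0.160), Hey2 (0.96 ± 0.165) and Dll1 (0.90 ± 0.139; SD, n = 3 each). The ranges of the 3 libraries overlapped between Hes1 and Notch2, between Notch2 and Notch3 and between Hey2 and Dll1, so the order within these pairs is not resolved. The other neighbours in the order had ranges that did not overlap. In the knockout, Notch2 (22.9 ± 5.49) and Hes1 (21.8 ± 1.09) again stood highest, and Notch1 stood at 4.18 ± 0.784 CPM per kb, below the mean of Jag2 (4.73 ± 0.390) and of Hey1 (4.68 ± 1.19; SD, n = 3 each). Knockout ranges of Notch1, Jag2 and Hey1 overlapped. The order of genes also depends on the length used, the union of a gene's annotated exons. This was 14232 bases for Notch1, and a union can exceed the length of a single transcript and so lower the level. The 4 targets together summed to 28.1 ± 1.72 CPM per kb in the wild type and 29.97 ± 2.91 in the knockout, and the 3 ligands to 17.8 ± 1.08 and 19.1 ± 1.66 (SD, n = 3 each). Hes1 supplied 70.7%, 72.4% and 73.0% of the target level in WT2, WT3 and WT4 and 69.0%, 77.9% and 72.4% in KO1, KO2 and KO3.

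Among the 48 other Notch pathway genes, none passed the test. Of these, 46 could be tested and 0 rose or fell (edgeR, adjusted over all genes), with 6 at an unadjusted p under 0.05, beside 2021 of all 14233 genes. DESeq2 called 1 of them, Dlk1, where 453 of 15894 genes passed, and limma voom 0, where 60 of 14233 did. The median log2 fold change of the 46 was -0.032, with 20 positive and 26 negative. In 10 of the 46 the groups did not overlap, beside 23.5% of all genes. Neither the share at an unadjusted p under 0.05 nor the share without overlap stood above that of all genes. Dlk1, a ligand-like protein of the Delta family that lacks the domain for activating Notch in the canonical way, had the smallest p. Dlk1 stood at 335, 339.6 and 332 CPM in WT2, WT3 and WT4 and at 168, 244 and 216 CPM in KO1, KO2 and KO3. Each knockout library lay below the narrow wild type range, and KO1 was the lowest. The log2 fold change of Dlk1 was -0.68 (edgeR, adjusted p = 0.132). It was -0.81 without KO2, where it fell past the threshold (edgeR, adjusted p = 0.0047), and -0.70 with DESeq2 (adjusted p = 0.0021). Without KO2 Dlk1 was the only 1 of these pathway genes to pass, beside 2.12% of all genes.

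Crebbp and Ep300, the histone acetyltransferases recruited to the Notch nuclear complex, had the next smallest p. Crebbp stood at 148, 157 and 157 CPM in WT2, WT3 and WT4 and at 194, 287 and 178 CPM in KO1, KO2 and KO3 (log2 fold change 0.51; edgeR, adjusted p = 0.307). Ep300 stood at 139, 133 and 133 CPM in the wild type and at 157, 224 and 158 CPM in the knockout (log2 fold change 0.41; edgeR, adjusted p = 0.323). In both genes all knockout libraries lay above the wild type and KO2 was the highest, and without it the log2 fold changes were 0.26 and 0.21. The core members of that complex had close means in the groups: Rbpj, the DNA-binding partner, stood at 152 ± 13.6 and 149 ± 8.13 CPM, and Maml1, a Mastermind coactivator, at 68.4 ± 1.18 and 68.3 ± 4.97 CPM in the wild type and the knockout (SD, n = 3 each). The 95% intervals put the knockout level at 0.826 to 1.17 times that of the wild type for Rbpj and 0.854 to 1.17 times for Maml1.

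The remaining roles held no call either. Of 10 genes for receptor cleavage, 9 had negative log2 fold changes (median -0.14, and -0.091 without KO2) and 0 passed. In 3 of the 10, Furin, Adam17 and Ncstn, the knockout libraries all lay below the wild type. Of 13 genes for ligand and receptor trafficking or turnover, 9 were positive (median 0.15, and 0.034 without KO2) and 0 passed. In 3 of the 13 the groups did not overlap, 1 with the knockout lower and 2 with it higher. Among all genes, 23.5% had groups that did not overlap. Of 5 glycosylation genes 0 passed, and Lfng, a fringe glycosyltransferase that alters which ligands a receptor responds to, stood at 11.2 ± 1.47 CPM in the wild type and 9.09 ± 0.993 CPM in the knockout (SD, n = 3 each; edgeR, adjusted p = 0.433). The endothelial pair Notch4 and Dll4 stood at 10.7 ± 0.771 and 5.52 ± 0.661 CPM in the wild type and at 9.81 ± 0.776 and 4.40 ± 1.23 CPM in the knockout (SD, n = 3 each; edgeR, adjusted p = 0.714 and 0.5700). Nrarp, a target gene whose protein acts back on the receptor's intracellular domain, stood at 16.2 ± 1.07 and 13.3 ± 2.86 CPM (SD, n = 3 each; edgeR, adjusted p = 0.491). Hes5 was too low to test, with 1, 2 and 1 read pairs in WT2, WT3 and WT4 and 9, 3 and 0 in KO1, KO2 and KO3.

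**Figure D4:**
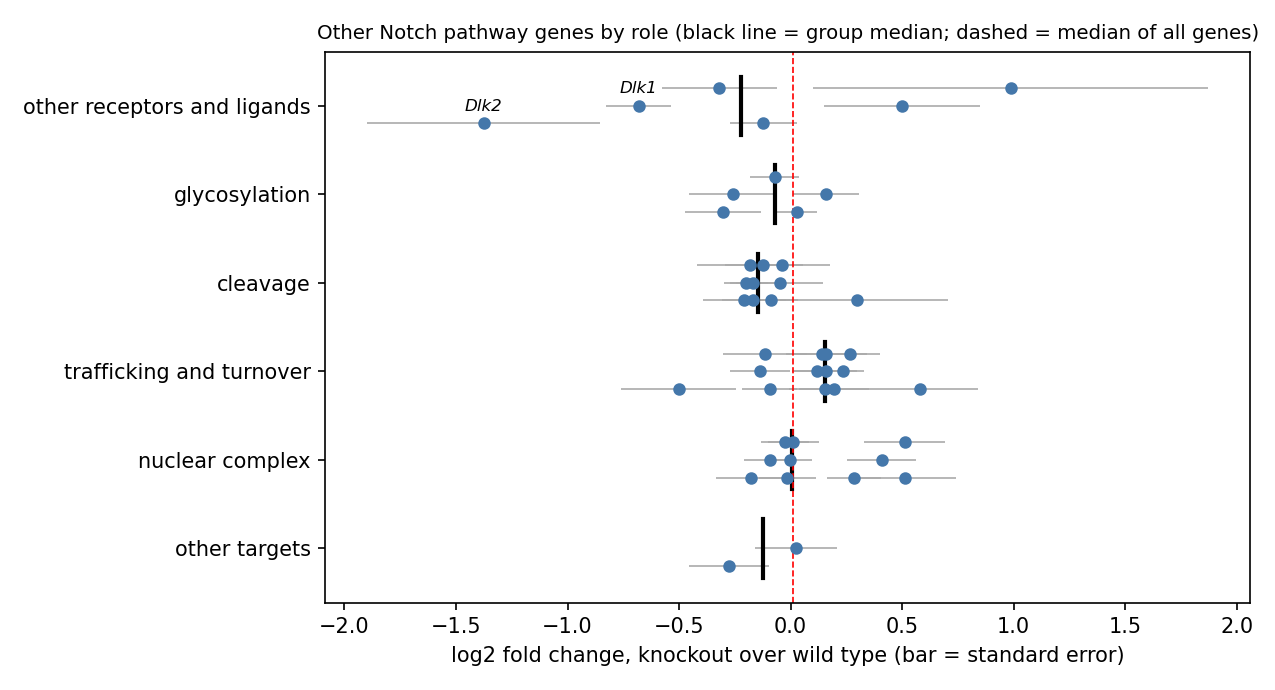
Log2 fold change of knockout over wild type (x axis, bar = standard error) for the 46 other Notch pathway genes that could be tested, in rows by role; the black line is the row's median and the dashed line the median of all genes. Medians run from -0.22 for other receptors and ligands, where Dlk1 and Dlk2 lie lowest, to 0.15 for trafficking and turnover.

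The members did not move as a unit across the 6 libraries. Profiles were compared as the root mean square difference of log2 CPM after each gene was centred on its own mean. The closest members were Notch3 and Jag2, with a difference of 0.074, and the most distant were Notch2 and Hey2, at 0.61. Notch1 and Notch2 were also far apart, at 0.54. Among 9546 genes with a mean of at least 10 CPM, the profile closest to Notch1 was that of Fat2, a protocadherin, at 0.039, then Met, the receptor of hepatocyte growth factor, at 0.068, and Irf2bpl at 0.069. Notch3 was closest to Fbxo10 (0.022), Lman1 (0.031), a cargo receptor of the secretory pathway, and Copa (0.035), a coatomer subunit. Notch2 was closest to Fam160a2 (0.028), Eif2ak4 (0.034), a kinase of the integrated stress response, and Csnk1g1 (0.035), a casein kinase. With 6 libraries of which 1 stood apart, these neighbours describe the libraries and no more.

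The summed markers of endothelium, of pericytes and smooth muscle, of epithelium and of blood and leukocytes were lower in each knockout library than in any wild type library. A sum is carried by its most abundant genes, and the endothelial list and the pericyte and smooth muscle list each held markers that went the other way. With all 6 libraries no marker in these lists passed the test (edgeR, adjusted over all genes), whereas without KO2 some epithelial and leukocyte markers did. The 13 endothelial markers, among them Pecam1 and Cdh5, summed to 347 to 375 CPM in the wild type and 279 to 328 CPM in the knockout. Of these 13, 11 had negative log2 fold changes (median -0.33, and -0.23 without KO2), and 0 passed in either fit. The 2 positive ones were Erg (0.20, and 0.30 without KO2) and Flt1 (0.096, and 0.15 without KO2).

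The 11 pericyte and smooth muscle markers summed to 357 to 429.8 CPM in the wild type and 276 to 345 CPM in the knockout, and 0 of the 10 tested passed in either fit. Most of the difference in the sum lay in Pdgfrb, a growth factor receptor, with means of 162 and 121 CPM, and in Cspg4, a proteoglycan, with means of 44.5 and 23.2 CPM. Which cells of the shelf expressed them was not measured. The list was mixed, with 7 negative log2 fold changes of 10 (median -0.24) and positive ones for Abcc9 (0.45), Des (0.35) and Rgs5 (0.062). Acta2, the smooth muscle actin, had means of 61.96 and 59.5 CPM.

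The 14 epithelial markers summed to 756 to 905 CPM in the wild type and 382 to 680.0 CPM in the knockout. All 14 had negative log2 fold changes (median -0.69), and 0 passed with all libraries. Without KO2, 4 of the 14 fell past the threshold, beside 2.12% of all genes, while 2 of the 14 were positive and the median was -0.45. The 4 were the keratins Krt15 (log2 fold change -1.22; edgeR, adjusted p = 0.0041), Krt19 (-0.77; adjusted p = 0.0275) and Krt18 (-0.58; adjusted p = 0.0472) and the cell adhesion gene Cdh1 (-0.52; adjusted p = 0.0484). The 2 positive markers were Krt14 (0.12) and Trp63 (0.036), which stood at -0.16 and -0.034 with all libraries. The list was thus not uniform.

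The 6 blood and leukocyte markers summed to 59.8 to 68.6 CPM in the wild type and 29.1 to 42.4 CPM in the knockout, with Hba-a1 at 0 in every library. All 5 that could be tested had negative log2 fold changes. Mrc1, a macrophage receptor, had a log2 fold change of -1.04 that missed the threshold with all libraries (edgeR, adjusted p = 0.0528), and it fell past the threshold without KO2 (-0.96; adjusted p = 0.0110). In the endothelial, pericyte and smooth muscle and epithelial lists no marker was at 0 in all libraries, and the sums of all 4 lists lay in the same direction as Notch1 and Notch3. Their part in the values of Notch1 and Notch3 was not tested.

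The 10 neuronal markers summed to 160 to 261 CPM in the wild type and 109 to 335 CPM in the knockout, and the 7 skeletal muscle markers to 114 to 239 and 119 to 321 CPM, each highest in KO2, with Neurog1 at 0 in every library. Their median log2 fold changes were 0.084 and 0.16 with all libraries and -0.28 and -0.42 without KO2. The 6 Schwann and glial markers summed to 70.8 to 76.0 CPM in the wild type and 57.5 to 82.1 CPM in the knockout. In these 3 lists 0 markers passed with all libraries or without KO2.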

How the data were processed

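Palatal shelf mRNA libraries were sequenced as paired 25 bp reads, per the labels' protocols. The submitters' processing notes name TopHat2, SAMtools, HTSeq and mm9; for versions, annotation and strand setting the sources used here give nothing. Each deposited file holds the unnormalised counts that the authors made of read pairs for each gene symbol in 1 library. The 5 category lines were left out of all tests (pairs on no counted feature 12.3% to 47.5%, not uniquely aligned 18.1% to 30.3%, ambiguous 0.168% to 0.439% of each listed total). Without a stated strand setting, reads of antisense transcripts annotated over exons of Notch1, Notch3 and Dll1 in GENCODE M21 could be counted with these genes. Sample titles gave the groups and replicate numbers. Libraries of a group differed beyond sampling noise (chi-square per degree of freedom 11.0 to 153).

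Counts were scaled by the trimmed mean of M-values, filtered with filterByExpr and compared over all genes in edgeR 4.0.16 (R 4.3.3) by the robust quasi-likelihood test, with Benjamini-Hochberg adjustment at 0.05 and no covariate. CPM values use the scaled library sizes; standard errors and 95% intervals come from the fit. Profiles used log2(CPM + 0.5). Exon lengths are unions of GENCODE M21 exons, an annotation of another build than the counts, used for lengths only. The scripts were tested on simulated data. Alternatives were other size factors, DESeq2 1.42.0, limma 3.58.1 voom, other filters, fits with 1 library left out, a block on replicate number and, added after seeing the data, voom with sample weights. All members were named; of the other pathway genes, a fixed set, the 3 with the smallest p and any past the threshold (Furin, Adam17, Ncstn and Dlk2 were added after their values were seen). Members and lists were chosen with earlier results of these data known.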

Additional observations from a re-analysis of the deposited data

How the results depend on the processing

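The count of members past the threshold was 0 in edgeR and in 13 of 14 alternatives, and 1 (Notch1) with DESeq2. For the other pathway genes, 0 passed in edgeR, and 1 passed with DESeq2 and with sample weights (Dlk1 in each). In edgeR with the replicate block 1 passed (Dlk2, adjusted p = 0.0058). Only the numbers 2 and 3 occur in both groups, so the differences in that fit rest on WT2, WT3, KO2 and KO3. Leaving out single libraries gave 0 to 1, the latter Dlk1 without KO2. Notch1, Notch2, Notch3, Jag1, Jag2, Hes1 and Hey2 kept their sign in all 14. Dll1 changed sign to -0.0036 with limma voom and -0.082 with sample weights, and ran from -0.24 (without KO2) to 0.33 with single libraries left out. Hey1 ran from -0.074 to 0.24 and Heyl from -0.074 to 0.31 with single libraries left out, and they were -0.065 and -0.090 with the replicate block. The groups share the replicate numbers 2 and 3 in the titles only. No label says that a number marks a litter or day, so the numbers were not taken to pair the samples. Deviations from the group means correlated at 0.24 for number 2 and -0.15 for number 3. With 3 libraries per group and KO2 apart, such values cannot settle whether samples were paired. With raw counts in place of counts per kb, the Notch1 share of receptors differed by -6.85 percentage points. Over all genes, 76 passed in edgeR, 453 with DESeq2, 301 with the block, 359 with sample weights and 0 to 307 with single libraries left out. The median log2 fold change of all genes stayed within 0.033 of 0. Dll1 and Hey2 had the fewest counts, and their knockout libraries also varied by more than counting error (coefficients of variation 38.2% and 38.8%).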
